A study of Oryctolagus cuniculus with 16 samples.

Results

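The nuclear envelope genes described here were *LBR*, *LMNA*, *LMNB1*, *TMPO*, *EMD* and *SUN2*, the 6 of 8 listed genes whose symbol was found among the 20255 genes of the total RNA-seq table. *SUN1* was listed there only under an identifier, LOC103347091, and its values were taken by its gene ID, while *LMNB2* was not analysed here. The Perthes group consisted of 5 immature wild-type rabbits in which the femoral neck had been ligated and the ligamentum teres cut, which interrupts the blood supply of the femoral head. The control group consisted of 3 wild-type rabbits, and whether they had a sham operation is not given in the sources used here. Neither are the sex of the animals or the time from operation to sampling. The labels record the model as a genotype, although it was made by surgery. Femoral head tissue was sequenced after removal of ribosomal RNA, with 27331725 to 29461482 counts in the Perthes libraries and 26757087 to 28783082 in the controls. Of the defining markers of the tissue, the summed level of 10 osteoblast and osteocyte genes was at least 46394 CPM, which are counts scaled to a common library size, in every library, of which *COL1A1* alone made up 95.5% to 98.7%. That of 9 cartilage genes was at least 35348 CPM, with 81.3% to 93.4% from *COL2A1*. The other 9 bone genes together held at least 1187 CPM and the other 8 cartilage genes at least 3047 CPM, while *MATN1* was near 0. Perthes rabbit 4 stood apart from the other 7 on the second principal component. Some of the values that depend on a single rabbit are given with and without it.

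The nuclear envelope is a double membrane whose inner face is lined by the lamina, a meshwork of A-type lamins (from *LMNA*) and B-type lamins (from *LMNB1* and *LMNB2*). The lamin B receptor LBR, emerin and some of the thymopoietin products of *TMPO* sit in the inner membrane and tie chromatin to the lamina. The SUN proteins reach across the envelope to nesprins and the cytoskeleton. A-type lamins are abundant in stiff tissues and in mesenchymal cells, whereas blood-forming cells are rich in B-type lamins and LBR, and neutrophils need LBR to form lobed nuclei.

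These genes were picked with the contrast between the groups already known, so their values are a description and carry no p-value. *LBR*, *LMNB1* and *TMPO* were at lower levels in every Perthes rabbit than in every control. *LMNA* had a higher mean in the Perthes group, with groups that overlapped. *EMD*, *SUN1* and *SUN2* had means 1.17-fold, 1.16-fold and 1.42-fold lower in the fit, and their groups overlapped. In edgeR's quasi-likelihood test over all 15305 genes that passed the low-count filter, 3 of the 6 genes had an adjusted p below 0.05, all of them lower, and 3 had groups that did not overlap. Over all genes, 15.1% had an adjusted p below 0.05, with 6.21% higher and 8.86% lower, and 25.2% had groups that did not overlap, with 13.9% lower. Nothing is read from the members' count, because that contrast was known when they were picked. The 3 calls became 2 without Perthes rabbit 5 and 0 without control rabbit 1 or 2. Without control rabbit 1 only 73 genes of the whole table were higher and 184 lower, and without control rabbit 2 no gene was called, with 1624 higher and 2098 lower at an unadjusted p below 0.05. With DESeq2 3 of the 6 were lower and 1, *LMNA*, was higher, against 12.5% lower and 11.3% higher of all genes, 23.8% in either direction. The lower genes made up 58.8% of all called genes, and 71.5% when libraries were scaled by their totals alone instead of by the trimmed mean of M-values (TMM).

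**Figure D1:**
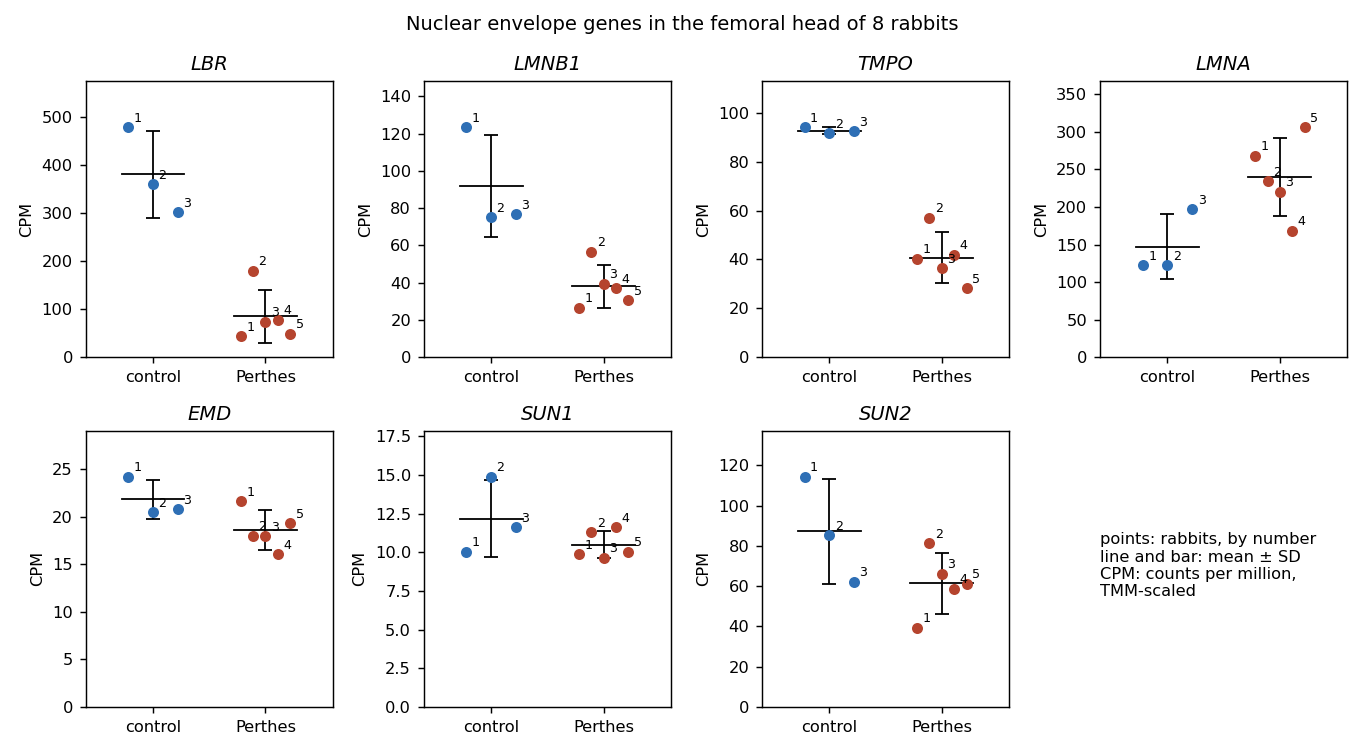
TMM-scaled CPM of 7 nuclear envelope genes, each point a rabbit labelled by its number, with the mean and SD of each group. *LBR* lies between 302 and 479 CPM in the 3 controls and at or below 180 CPM in the 5 Perthes rabbits, whereas the points of *EMD*, *SUN1*, *SUN2* and *LMNA* overlap between the groups.

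The lamin B receptor gene *LBR* (gene 100345014) encodes a multispanning inner membrane protein that binds B-type lamins and heterochromatin and also acts as a sterol reductase in cholesterol synthesis. It was at 43.8, 180, 74.1, 78.0 and 48.7 CPM in Perthes rabbits 1 to 5 and at 479, 360 and 302 CPM in control rabbits 1 to 3. The highest Perthes rabbit, rabbit 2, lay more than 100 CPM below the lowest control and far above the other Perthes rabbits. The means were 85.0 ± 55.4 CPM (SD, n = 5) and 381 ± 90.3 CPM (SD, n = 3). The fitted log2 fold change was -2.16 (standard error, SE, 0.44), or 4.48-fold lower. Of all genes tested, 3.10% had a lower log2 fold change. Without Perthes rabbit 2 it was -2.64. Since these are bulk samples, fewer cells of a type and less RNA per cell cannot be told apart.

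The B-type lamin gene *LMNB1* (100346094) was at 26.6, 56.5, 39.4, 36.9 and 30.6 CPM in Perthes rabbits 1 to 5 and at 124, 75.3 and 76.7 CPM in the controls. Perthes rabbit 2 was again the highest of its group, and control rabbit 1 lay well above the other controls. The means were 38.0 ± 11.5 CPM (SD, n = 5) and 91.8 ± 27.5 CPM (SD, n = 3), with a log2 fold change of -1.27 (SE 0.27). *TMPO* (100358770), whose products LAP2 alpha and LAP2 beta bind A-type and B-type lamins, was at 40.3, 57.2, 36.4, 41.9 and 28.3 CPM in the Perthes rabbits and at 94.2, 91.6 and 92.5 CPM in the controls. The controls were thus nearly equal, with a coefficient of variation of 1.42%, against 25.9% in the Perthes group. The log2 fold change of *TMPO* was -1.18 (SE 0.21), and of all genes tested 8.87% had a lower value.

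The A-type lamin gene *LMNA* (100343574), which gives rise to lamins A and C, was at 268, 234, 220, 168 and 306 CPM in Perthes rabbits 1 to 5 and at 123, 122 and 197 CPM in the controls. Control rabbit 3 lay above Perthes rabbit 4, and the other 4 Perthes rabbits were above all controls. The means were 239 ± 51.9 CPM (SD, n = 5) and 147 ± 42.9 CPM (SD, n = 3). On the log2 scale the difference was 0.70 (SE 0.25), or 1.63-fold higher, and 14.1% of all genes tested had a higher value. Leaving out a rabbit at a time gave log2 fold changes from 0.58 to 0.97, the latter without control rabbit 3.

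Emerin, the product of *EMD* (100328755), is an inner membrane protein with a LEM domain, which binds the chromatin protein BAF. *EMD* was at 21.6, 18.0, 18.0, 16.0 and 19.3 CPM in the Perthes rabbits and at 24.2, 20.5 and 20.8 CPM in the controls, so that only Perthes rabbit 1 reached into the range of the controls. Its log2 fold change was -0.23 (SE 0.15). *SUN1* and *SUN2* encode the inner membrane side of the LINC complex, the bridge to the cytoskeleton. *SUN1* (103347091) ranged from 9.66 to 11.6 CPM (median 10.04) in the Perthes group and was at 10.04, 14.9 and 11.6 CPM in the controls. Perthes rabbits 1 and 3 lay below the controls and the other 3 within their range, and the log2 fold change was -0.21 (SE 0.18), which moved to -0.05 without control rabbit 2. *SUN2* (103348391) was at 39.3, 81.3, 66.2, 58.7 and 61.2 CPM in the Perthes rabbits and at 114, 85.4 and 62.1 CPM in the controls, with a log2 fold change of -0.51 (SE 0.26). Control rabbit 3 lay below 2 of the Perthes rabbits for this gene, and the value was -0.26 without control rabbit 1.

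Ratios between 2 of these genes within a library do not depend on how libraries are scaled. They were compared between rabbits only, because counts of 2 genes also reflect transcript lengths. *LMNA* had 10.1, 4.14, 5.59, 4.56 and 9.999 times the counts of *LMNB1* in Perthes rabbits 1 to 5, against 0.992, 1.62 and 2.57 times in the controls. Every Perthes rabbit was above every control, and the mean log2 ratio was 2.68 ± 0.62 (SD, n = 5) against 0.68 ± 0.69 (SD, n = 3), a 3.98-fold difference. For *LMNA* over *LBR* the ratio ran from 1.30 to 6.28 in the Perthes group and from 0.256 to 0.651 in the controls, a difference of 3.05 in the mean log2 ratio. *EMD* over *TMPO* ran from 0.315 to 0.684 and from 0.224 to 0.257, with a difference of 0.99. The groups also did not overlap for these 2 ratios.

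*LBR* was lower also relative to the other genes that were lower. *LBR* over *LMNB1* was 1.65, 3.19, 1.88, 2.11 and 1.59 in the Perthes rabbits and 3.88, 4.79 and 3.94 in the controls, and *LBR* over *TMPO* ran from 1.09 to 3.16 and from 3.27 to 5.09. Both ratios, chosen after the values were seen, were lower in every Perthes rabbit, with differences of -1.05 and -1.11 in the mean log2 ratio. For *SUN2* over *SUN1* the ranges overlapped, at 3.98 to 7.19 and 5.35 to 11.4. Its difference of -0.30 became 0.04 without control rabbit 1, which alone lay above 7.19.

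**Figure D2:**
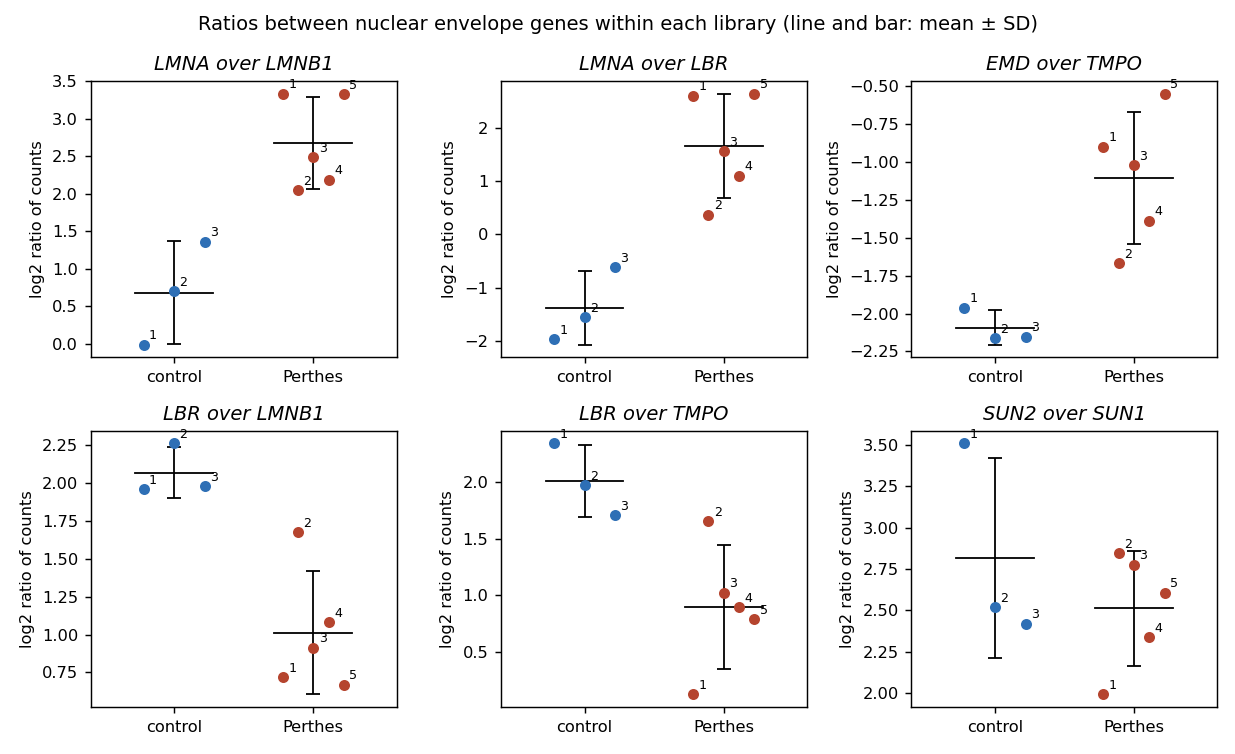
Log2 ratio of counts between 2 nuclear envelope genes within each library, by rabbit, with the mean and SD of each group. The groups do not overlap for any ratio except *SUN2* over *SUN1*, where control rabbit 1 is the only one above the Perthes range.

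Among the 7 genes, the profiles closest to each other over the 8 rabbits were those of *EMD* and *SUN1*, followed by those of *LMNB1* and *TMPO*. Closeness was measured as the root mean square distance between log2 CPM profiles, each centred on its own mean, and was 0.27 and 0.29. The profiles were not scaled, so genes that vary little are close by this measure. The Perthes rabbits ran from high to low as 1, 5, 2, 3 and 4 for *EMD* but as 4, 2, 5, 1 and 3 for *SUN1*. The pair farthest apart was *LBR* and *LMNA*, at 1.67. Over all named genes tested, the profiles most like that of *LBR* belonged to *NATD1* (distance 0.12), *GUCA2A* (0.14), *AURKB* (0.17), *DNA2* (0.17) and *PIGQ* (0.19), against a median of 1.34 over all genes. *AURKB* encodes a mitotic kinase and *DNA2* a nuclease-helicase of DNA replication, *AURKB* being also a dividing-cell marker of the list used further on, and *GUCA2A* was below 1.1 CPM on average in both groups. Those most like *LMNA* were *ATP6V1E1* (0.12), *PCYOX1L* (0.15), *TVP23B* (0.15), *PTPRZ1* (0.16) and *SLC25A43* (0.16), against a median of 0.60. *ATP6V1E1* encodes a subunit of the vacuolar proton pump. The profiles share all 8 libraries and the difference between the groups, and the distances are a description.

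The other genes of the nuclear envelope were taken from lists chosen by function, of which 81 of 86 genes were in the table and 78 were tested. In edgeR's test 2 of them were higher and 13 lower in the Perthes group at an adjusted p below 0.05, or 19.2% against 15.1% of all genes. Their median log2 fold change was -0.16, against 0.02 over all genes. The 13 lower calls became 6 without Perthes rabbit 3, 4 without Perthes rabbit 5, 2 without control rabbit 1, 0 without control rabbit 2 and 8 without control rabbit 3, and the 2 higher calls became 1 without Perthes rabbit 1, 2 or 4 and 0 without any other rabbit. Without control rabbit 2 no gene of the table was called, while 22 of the listed genes were lower and 2 higher at an unadjusted p below 0.05. DESeq2 on all 8 rabbits called 20 lower and 2 higher, against 12.5% and 11.3% of all genes.

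**Figure D3:**
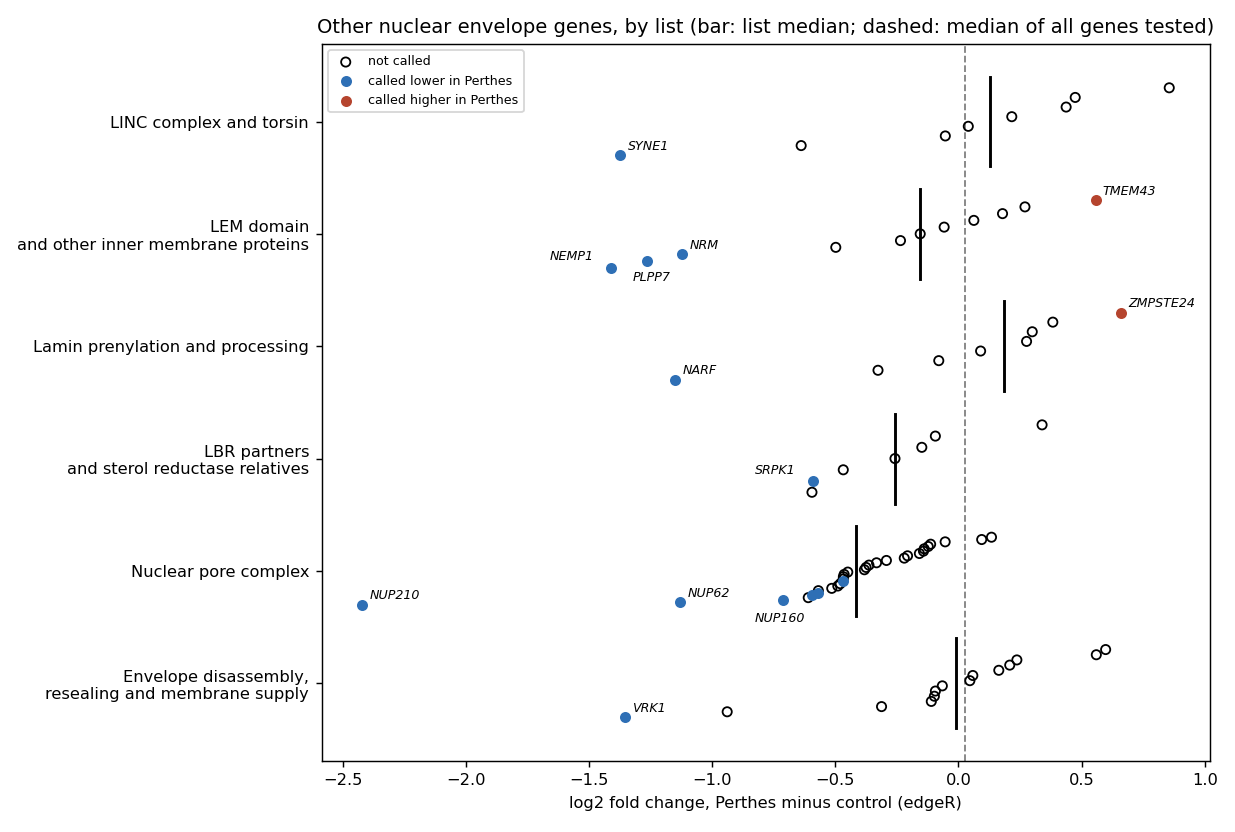
Log2 fold changes of the 78 tested genes of 6 nuclear envelope lists, Perthes minus control. Each point is a gene, filled where its adjusted p was below 0.05, short bars are list medians, and the dashed line is the median of all genes tested. The pore complex list lies mostly left of that line, with *NUP210* farthest out at -2.42.

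The nuclear pore complex was the list with the lowest median. Of 30 tested nucleoporin genes 6 fell, none rose, and 28 had a negative log2 fold change, with a median of -0.42. Over all genes 8.86% fell and 48.4% had a negative value. The 6 calls became 1 without Perthes rabbit 3 or 5, 0 without control rabbit 1 or 2 and 2 without control rabbit 3. They became 3 with no low-count filter, where 1261 of 20249 genes were called lower. DESeq2 gave 11, against 12.5% lower of all genes. Library totals alone also gave 11, where 1705 of 15305 genes were called lower. *NUP210*, which encodes a membrane glycoprotein of the pore, was at 30.0, 141, 72.3, 58.4 and 27.2 CPM in the Perthes rabbits and at 502, 313 and 243 CPM in the controls. Perthes rabbit 2 was the highest of its group, as it was for *LBR*, and no Perthes rabbit reached the controls. The log2 fold change was -2.42 (SE 0.52, edgeR adjusted p = 0.0191). It was -2.91 without Perthes rabbit 2 and -2.08 without control rabbit 1. *NUP62*, from the central channel, fell by 1.13 on the log2 scale (edgeR adjusted p = 0.0211), and *NUP160*, from the outer ring, fell by 0.71 (edgeR adjusted p = 0.0254). The other 3 called genes, *NUP153*, *NUP50* and *NUP155*, had adjusted p-values from 0.0375 to 0.04995 in edgeR.

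Of the LINC complex and torsin genes, 1 of 8 tested genes fell and none rose (median 0.13). The shares over all genes were 8.86% lower and 6.21% higher. The lower calls were 0 without control rabbit 2 and 2 without Perthes rabbit 2. The gene called with all rabbits was the gene matched by its ID to *SYNE1*, which encodes nesprin-1, a partner of the SUN proteins in the outer membrane. It was at 166, 178, 144, 171 and 130 CPM in the Perthes rabbits and at 580, 356 and 291 CPM in the controls. The 5 Perthes rabbits were close to each other and all below the controls, and the log2 fold change was -1.37 (SE 0.24, edgeR adjusted p = 0.0133). It was -1.03 without control rabbit 1. The table holds a second gene model described as nesprin-1-like, LOC108177490, which also fell, by 0.94 (edgeR adjusted p = 0.0218). Reads of the same gene may be divided between these models. *SYNE2*, the gene of nesprin-2, had a log2 fold change of -0.64 (SE 0.20, edgeR adjusted p = 0.0611) with groups that did not overlap, and passed the test with DESeq2 (adjusted p = 0.0187).

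Among 11 tested genes of LEM domain and other inner membrane proteins, 3 fell and 1 rose (median -0.16). Of all genes tested, 8.86% fell and 6.21% rose. The 3 lower calls became 1 without Perthes rabbit 5 and 0 without control rabbit 1 or 2. *NEMP1*, an integral protein of the inner membrane, averaged 23.4 ± 6.78 CPM (SD, n = 5) in Perthes rabbits against 62.1 ± 9.24 CPM (SD, n = 3), which gave a log2 fold change of -1.41 (SE 0.23, edgeR adjusted p = 0.0122). *NRM*, the gene of nurim, fell by 1.12 on the log2 scale (edgeR adjusted p = 0.0218), and *PLPP7* fell by 1.26 (edgeR adjusted p = 0.0225). *TMEM43*, whose product LUMA binds lamins and emerin, rose by 0.56 (edgeR adjusted p = 0.0450). It was not called without Perthes rabbit 2, 3, 4 or 5 or any of the controls, with adjusted p-values from 0.0538 to 0.136. The LEM domain genes themselves did not pass the test, with log2 fold changes of 0.06 ± 0.18 (standard error) for *LEMD2* and -0.16 ± 0.18 for *LEMD3*. *BANF1*, which encodes their ligand BAF, was at -0.06 ± 0.28. The signs of *LEMD2* and *BANF1* changed when a rabbit was left out.

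Newly made prelamin A is farnesylated and then cleaved by the protease ZMPSTE24. Of 8 tested genes of lamin prenylation and processing 1 rose and 1 fell (median 0.18), against 6.21% and 8.86% of all genes. *ZMPSTE24* was at 51.0, 32.7, 35.6, 33.2 and 42.0 CPM in the Perthes rabbits and at 22.8, 23.6 and 27.4 CPM in the controls. All Perthes rabbits were above all controls, and the log2 fold change was 0.66 (SE 0.19, edgeR adjusted p = 0.0458). It passed the test without Perthes rabbit 2 or 4, but not without any other rabbit (adjusted p = 0.0520 to 0.155) nor with scaling by library totals alone (adjusted p = 0.114). *NARF*, named for its binding of prelamin A, fell by 1.15 on the log2 scale (edgeR adjusted p = 0.0313), and was not called without Perthes rabbit 3 or 5 or control rabbit 1 or 2 (edgeR adjusted p = 0.0724 to 0.125). *FNTA* and *FNTB*, the subunits of the farnesyltransferase, had log2 fold changes of 0.38 and -0.33 and did not pass the test.

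Of 7 tested genes of LBR partners and sterol reductase relatives, 1 fell and none rose (median -0.26), against 8.86% and 6.21% of all genes. The lower calls were 0 without Perthes rabbit 3 or 5 or any of the controls, and 2 without Perthes rabbit 4. *SRPK1*, the kinase that phosphorylates the arginine-serine region of LBR, had a mean of 58.7 ± 5.29 CPM (SD, n = 5) in the Perthes group and of 88.3 ± 2.64 CPM (SD, n = 3) among controls, and its log2 fold change was thus -0.59 (SE 0.13, edgeR adjusted p = 0.0225). *CBX5*, which encodes the heterochromatin protein HP1 alpha, was at -0.47 (SE 0.16, adjusted p = 0.0809 in edgeR and 0.0270 in DESeq2). *TM7SF2* encodes the other sterol reductase with the activity of LBR and had 2.56 ± 0.961 CPM (SD, n = 5) in the Perthes group and 3.86 ± 0.716 CPM (SD, n = 3) among controls, with -0.59 on the log2 scale (SE 0.32, edgeR adjusted p = 0.231). *DHCR7* was not analysed here. In the list of envelope disassembly, resealing and membrane supply, 1 of 14 tested genes fell and none rose (median -0.01). This was *VRK1*, the kinase that releases BAF from chromatin in mitosis, which was at 5.07 to 8.65 CPM in the Perthes rabbits and at 14.5 to 19.4 CPM in the controls. It fell by 1.35 on the log2 scale (SE 0.20, edgeR adjusted p = 0.0118), and among the fits that left out a rabbit it lost the call only without control rabbit 2 (edgeR adjusted p = 0.0519). The tested genes of the ESCRT machinery that reseals the envelope, from *CHMP2A* at -0.31 to *VPS4B* at 0.56, did not pass the test.

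Markers of several cell types moved together with these genes. The summed level of 12 dividing-cell markers was 312 to 796 CPM in the Perthes rabbits and 1662 to 1881 CPM in the controls, and 11 of the 12 were called lower. For 9 markers of neutrophils and granulocyte precursors the sums were 28.5 to 1823 and 6830 to 22518 CPM, with 5 of 9 called lower. For 11 erythroid markers they were 34.6 to 2444 and 5247 to 5926 CPM, with 1 of 11 called lower. The groups did not overlap for any of the 11. Over all genes, 8.86% were called lower, 6.21% were called higher and 13.9% were lower without overlap. In the opposite direction, the sums were 735 to 7101 and 382 to 396 CPM for macrophage markers (5 of 8 called higher). Only Perthes rabbit 4 was at 735 CPM, and the other Perthes rabbits were at 5088 to 7101 CPM. *GPNMB* made up 4.06% to 82.3% of the macrophage sum, and the other 7 genes summed to 421 to 1610 and 358 to 378 CPM. For fibroblasts and stroma the sums were 14930 to 26354 and 1675 to 9149 CPM (3 of 9). The osteoclast sums were 3097 to 6084 and 1797 to 2826 CPM (2 of 8), and overlapped once *CTSK* was left out. For smooth muscle they were 99.1 to 356 and 21.5 to 36.8 CPM (2 of 4). Of these lists, *MARCO* (macrophages, -2.19), *ITGB3* (osteoclasts, -0.54) and *MYOCD* (smooth muscle, -1.66) had negative log2 fold changes. No marker of these lists in the table was at 0 in all libraries. The sums of the B lineage, osteoblast, cartilage, endothelial, adipocyte and skeletal muscle markers overlapped between the groups. Of these, 1 of 8 B lineage and 1 of 8 endothelial genes were called lower, and none of 10, 8, 6 and 4 tested genes of the other lists was called in edgeR (DESeq2 was not counted by marker list).

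Within the Perthes group, the order of the rabbits from high to low was 2, 4, 3, 5 and 1 for *LBR*, and it was the same for the sums of the dividing-cell, erythroid and neutrophil markers. Parts of this order are weakly set. Rabbits 4 and 3 were at 78.0 and 74.1 CPM for *LBR*, and rabbits 5 and 1 at 334 and 312 CPM for the dividing-cell sum. For *LMNB1* rabbits 3 and 4 changed places, and for *TMPO* the order was 2, 4, 1, 3 and 5. Among the controls the order for *LBR* was 1, 2 and 3, as for the erythroid, neutrophil, macrophage and endothelial sums. Of these, the macrophage sum differed between the groups in the direction opposite to *LBR*, and was nearly equal in the controls, at 396, 394 and 382 CPM. For *LMNB1* and *TMPO* the order of the controls was 1, 3 and 2, as for the dividing-cell sum. Control rabbits 3 and 2 were nearly equal in each, so this order is weakly set. They were at 76.7 and 75.3 CPM for *LMNB1*, 92.5 and 91.6 CPM for *TMPO*, and 1662.2 and 1661.6 CPM for the sum. The order for *LMNA* was 5, 1, 2, 3 and 4 in the Perthes group and 3, 1 and 2 in the controls. Control rabbits 1 and 2 were again nearly equal for *LMNA*, at 122.6 and 122.3 CPM. No marker sum had both orders of *LMNA*, and the cartilage sum, with its order of 4, 3, 5, 2 and 1 in the Perthes group, was the only one with its order of the controls. The part of these cell types in the values of the nuclear envelope genes was not tested.

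**Figure D4:**
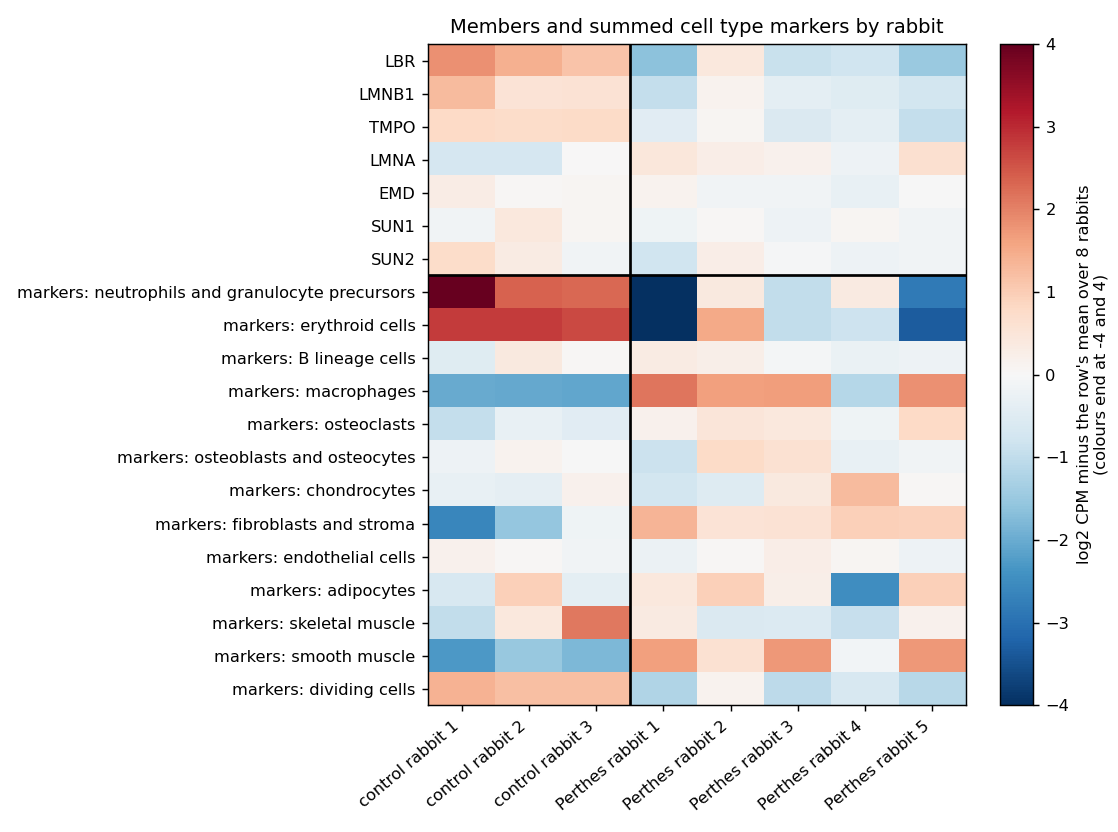
Log2 CPM of 7 nuclear envelope genes and of the summed markers of 13 cell types in each rabbit, minus the mean of each row over the 8 rabbits (colours end at -4 and 4). *LBR*, *LMNB1* and *TMPO* share their sign between groups with the dividing-cell, erythroid and neutrophil rows. *LMNA* shares its sign with the macrophage, fibroblast, osteoclast and smooth muscle rows, among others.

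Set against the summed dividing-cell markers, a comparison chosen after the values were seen, the 3 lower genes differed from each other. *LBR* amounted to 14.0%, 22.7%, 21.5%, 16.97% and 14.6% of that sum in Perthes rabbits 1 to 5 and to 25.5%, 21.7% and 18.2% in the controls. The ranges overlapped, with means of 18.0% ± 3.96 (SD, n = 5) and 21.8% ± 3.65 (SD, n = 3). *LMNB1* ran from 7.11% to 11.4% in the Perthes group and from 4.53% to 6.57% in the controls, and *TMPO* from 7.19% to 12.9% and from 5.01% to 5.56%. Relative to this sum *LMNB1* and *TMPO* were higher in every Perthes rabbit, by 0.76 and 0.82 in the mean log2 ratio, although their own levels were lower. The sum was carried by *MKI67*, which made up 25.7% to 51.1% of it. With *MKI67* left out, the differences were 0.34 for *LMNB1*, 0.40 for *TMPO* and -0.71 for *LBR*. Against each of the 12 markers alone, the log2 ratio of *LMNB1* ran from -0.22 to 1.43 and that of *TMPO* from -0.16 to 1.49. Both ratios were higher against 10 markers, without overlap for 6 of them, and lower against *CDK1* and *PCNA*. For *LBR* the ratio was higher against *MKI67* and lower against the other 11, without overlap for 4.

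**Figure D5:**
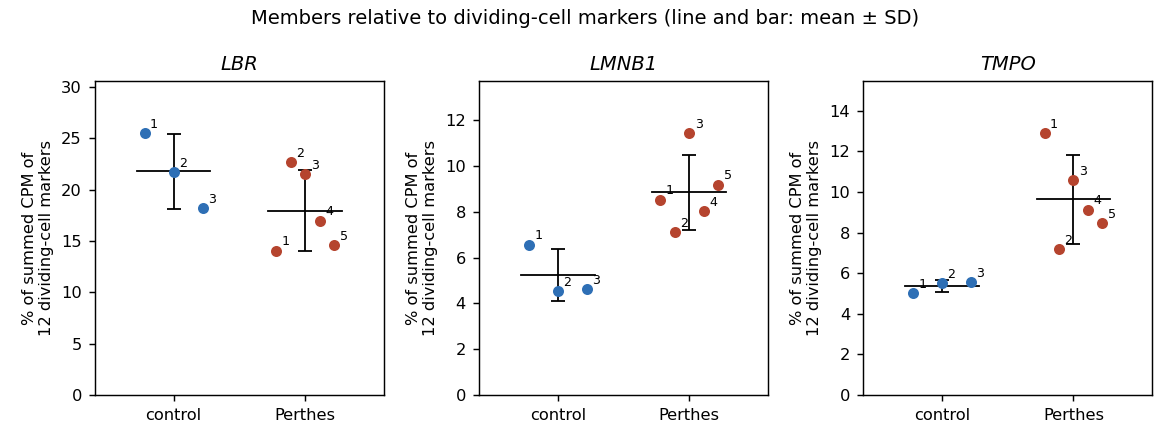
*LBR*, *LMNB1* and *TMPO* as a percentage of the summed CPM of 12 dividing-cell markers in each rabbit, with the mean and SD of each group. The groups overlap for *LBR*, and the Perthes rabbits lie above the controls for *LMNB1* and *TMPO*.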

How the data were processed

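Reads of the 8 total RNA libraries were mapped with HISAT2 2.0.4 and quantified with RSEM 1.1.17 and HTSeq 1.99.2, per the submitters' processing notes. The authors deposited these as unscaled expected counts, in which a read matching several genes is divided among them. Up to 10.7% of a library's values were not whole and were rounded here. Another 8 columns that repeat these values, and the miRNA table, were not used. Genes were tested with edgeR 4.0.16 in R 4.3.3 (TMM, filterByExpr, quasi-likelihood F-test, Benjamini-Hochberg over 15305 genes), and a gene was called at an adjusted p below 0.05. The standard error is the log2 fold change divided by the root of F. CPM are TMM-scaled, with a prior count of 2 where logs were taken. The methods were tested on simulated counts. P-values measure the spread between these samples, taken as separate rabbits. The third control carries differing numbers in its labels and is control rabbit 3 here. Precision is limited by the spread between rabbits, as the members held at least 263 counts in every library.

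The members and lists were chosen with earlier results of these data known. Named were all members, nesprins 1 and 2, *LEMD2*, *LEMD3*, *BANF1*, *ZMPSTE24*, *TM7SF2*, *DHCR7* and *CBX5*, the 3 called genes of lowest adjusted p per list and direction, and the 5 profiles nearest *LBR* and *LMNA*. Others named (*NUP153*, *NUP50*, *NUP155*, *FNTA*, *FNTB*, *CHMP2A*, *VPS4B*, LOC108177490, the markers and those of the last section) were chosen after their values were seen. Symbols absent from the table were looked up by gene ID in RefSeq's mOryCun1.1 annotation, where the table gave a LOC identifier. Alternatives were DESeq2 1.42.0, its size factors, library totals alone, no filter, at least 10 counts in every library, a replicate block, and leaving out each rabbit.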

Additional observations from a re-analysis of the deposited data

Results flagged for a closer look

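Among 44 quantities examined in the 5 Perthes rabbits, 4 (9.09%) had a single rabbit far from the rest. In each it was the highest value, in Perthes rabbit 2. For these 4 the gaps were measured on CPM without logs, where high values stand out more. The share is therefore not set against a chance rate. *LBR* was at 180 CPM there, with the next rabbit at 78.0 CPM. *NEMP1* was at 35.3 CPM, with the next at 22.2 CPM, and *TM7SF2* at 4.19 CPM, with the next at 2.36 CPM. The summed erythroid markers were at 2444 CPM, with the next at 474 CPM. The 4 are not independent, as they come from the same library.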

How the results depend on the processing

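With edgeR, 951 genes of the table were called higher and 1356 lower, 2 and 13 of the listed nuclear envelope genes, and 0 and 3 of the 6 members. DESeq2 called 1720 and 1916 genes, 2 and 20 listed genes and 1 and 3 members. Scaling by library totals alone gave 678 and 1705 genes, and 0 and 20 listed genes. Without a low-count filter no listed gene was called higher and 10 were lower. Deviations of same-numbered rabbits correlated at -0.32, 0.16 and -0.24, and none correlated best with its own number. So few pairs cannot tell whether the replicate numbers pair the rabbits. With the number as a replicate block edgeR called 0 genes in either direction, 0 listed genes and 0 members (1504 and 1648 genes, 2 and 11 listed genes and 3 lower members at an unadjusted p below 0.05).

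Leaving out each rabbit gave 0 to 1267 genes higher and 0 to 1628 lower, 0 to 1 listed genes higher and 0 to 12 lower, and 0 to 1 members higher and 0 to 3 lower. Without control rabbit 2 no gene of the table was called. Fits without control rabbit 1 or 3, which also left 2 controls, called 73 and 695 genes higher and 184 and 1183 lower. The log2 fold changes of the members kept their sign in all these fits. So did the ratios, except *SUN2* over *SUN1* (-0.50 to 0.042 over the fits that left out a rabbit). With *MKI67* left out of the dividing-cell sum, the log2 differences relative to it moved to -0.71 for *LBR*, 0.34 for *LMNB1* and 0.40 for *TMPO*, a choice made after seeing the data. *LEMD2* was at -0.029 with library totals and from -0.074 to 0.26 when a rabbit was left out, and *BANF1* at 0.068 with the block and from -0.24 to 0.23. Of the named companion genes' values under an alternative, 59 lost the call, 6 gained it and 6 changed sign. The lost calls include those with the replicate block and without control rabbit 2, where no gene of the table was called. For the changes of call the cause was not tested. *LMNB2* over *LMNB1* could not be computed.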

Other observations

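Besides the called genes, 8 of the listed nuclear envelope genes were lower and 6 higher in every Perthes rabbit than in every control without passing edgeR's test. Together with the called genes this made 21 lower and 8 higher among 78, against 13.9% and 11.2% of all genes tested. The lower ones without a call were *SYNE2* (log2 fold change -0.64), *CBX5* (-0.47) and 6 nucleoporin genes. These 6 were *NUP98* (-0.49), *NUP43* (-0.45), *NUP205* (-0.38), *NDC1* (-0.46), *NUP214* (-0.47) and *NUP42* (-0.61). The higher ones were *TOR1AIP2* (0.44), *FNTA* (0.38), *FDPS* (0.30), *CBX1* (0.34), *VPS4B* (0.56) and *VRK2* (0.60). *CBX1* encodes HP1 beta, and its relative *CBX5* was among the lower ones. *VRK2* is a relative of *VRK1*, which fell. These genes were chosen after their values were seen. *SYNE4*, *KASH5* and *LEMD1* had at most 12, 4 and 1 counts in any library and were removed by the low-count filter.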
